A study of Mus musculus with 10 samples.

Results

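Intestine was set against 9 other mouse tissues on a splicing microarray, as 1 of 10 samples in the series. The sample is total RNA that the labels describe as pooled from intestine of CD1 mice, an outbred strain. The comparators are testis, brain, heart, muscle, spleen, lung, salivary, kidney and liver, each likewise pooled total RNA of the same strain and each measured in 1 sample. The labels name no treatment and give no age, sex, number of animals or segment of intestine, and there are no replicates. Every difference below therefore describes single arrays, and no p-value is given. The array followed 3126 alternative splicing events, and all of them have values in intestine.

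Each event is an alternative exon, called A, between flanking exons called C1 and C2. Splicing either keeps the exon, which joins C1 to A and A to C2, or skips it, which joins C1 directly to C2. Each event has 7 probes: 3 lie in the bodies of C1, A and C2, and 3 cross the junctions C1:A, A:C2 and C1:C2. The remaining probe is named INT, and what it measures is not stated in the labels. Intestine is a mixed tissue in which an absorptive and secretory epithelium lies on connective tissue and smooth muscle, with immune cells and nerves among them. Epithelium and muscle are known for alternative exons of their own. In a whole tissue, fewer cells of a type and less RNA per cell cannot be told apart. The deposited table pairs its event numbers with no gene names, so events are given by number, and marker genes of intestine were not used here to check the label.

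Values ran from 0 to 7.74 in intestine and to 8.66 over all arrays, on a compressed scale whose base is not stated. The median probe read 2.18 in intestine, within the range of 2.04 in salivary to 2.19 in brain. The share of probes listed at 0 was 1.53% in intestine, against 0.635% in kidney and 3.33% in salivary, the extremes of the series. INT probes had a median of 1.21 over all arrays and a 95th percentile of 3.13. These values serve below as marks of low signal. Levels are given as deposited. A deviation is the value in intestine minus the median of the other 9 tissues, after each array was centred on its own median, and is in units of the deposited scale.

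Transcripts that stood out in intestine were nearly all high ones. Level means the average of the C1 and C2 probes of an event, and a difference was counted from 2.15 units, which is 4 robust SDs (from the median absolute deviation) of the deviations of all 10 tissues. By this measure 59 transcripts were high in intestine, 1.89% of the 3126, and 2 were low, 0.064%. Against the mean of the other tissues in place of their median, 38 were high and 1 was low. Over the other 9 tissues pooled, each against its own comparators, the shares were 2.27% and 0.149%, so intestine had no larger share of high transcripts than the series at large. The level deviations in intestine had an SD of 0.692, near the low end of the range of 0.575 to 1.15 in the other tissues. Their 1st and 99th percentiles were -1.22 and 2.58. The asymmetry was also present at a smaller size: 209 transcripts deviated upward and 61 downward by at least 1.07 units. Values stop at 0, and in only 65.9% of events did the other tissues have a median from which a low call could be reached. Counted by single probes, with a threshold of 2.11 units, 1.62% were high and 0.0548% low in intestine, against 2.27% and 0.159% in the other 9 tissues pooled. The low probes numbered 12, but 6 without heart among the comparators, 7 without muscle, 19 without salivary, 20 without liver and 22 without spleen.

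The 59 high transcripts read from 2.98 to 6.77 in intestine, with a median of 4.87. The median of the other tissues for these transcripts lay between 0.589 and 3.57, with a median of 1.99. In 7 of the 59 that comparator was below the median of the INT probes, where the size of a deviation is not exact. Over all events the comparator was that low in 7.29%.

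**Figure D1:**
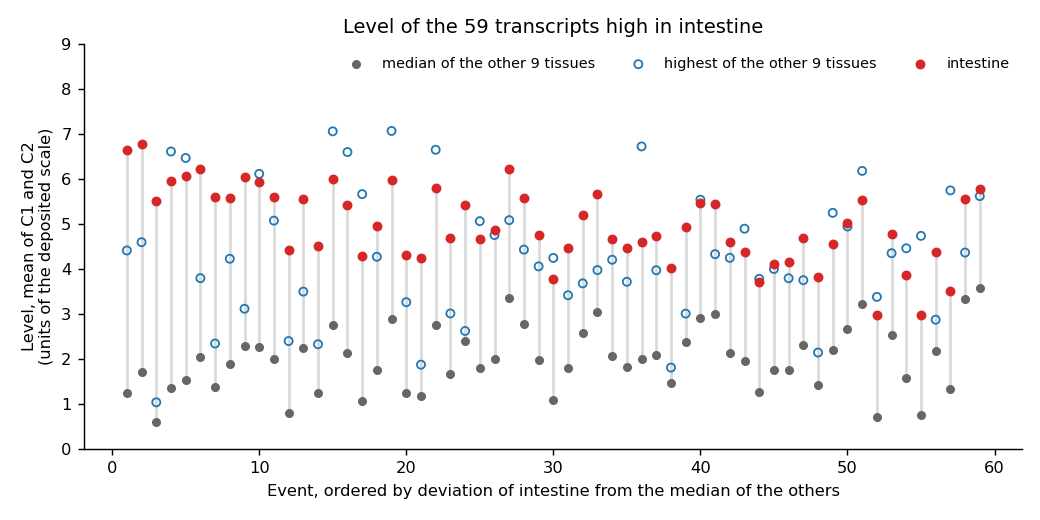
Level (mean of C1 and C2, units of the deposited scale) of the 59 transcripts high in intestine, ordered by deviation, with intestine in red, the highest other tissue as open blue circles and the median of the other 9 tissues in grey. Each point is 1 sample or the median of 9 samples. Intestine had the highest centred level of the 10 tissues in 39 of the 59, and open circles lie above the red points in the others.

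Event Ben2881 had the largest level deviation, 5.35 units. Its level was 6.65 in intestine, 4.41 in kidney, 4.33 in liver, 3.24 in salivary, 2.05 in heart, 1.23 in spleen, 0.923 in muscle, 0.433 in lung, 0.415 in brain and 0.222 in testis. Intestine was thus highest, with kidney and liver next, and the lowest tissues read under the median of the INT probes. The skipping junction of this event was bright in intestine, at 6.0, whereas C1:A read 2.47 and A:C2 read 3.04. The event was also among the exons called more skipped, with a junction index (inclusion less skipping junctions) of -3.24 in intestine and -3.27 in liver. The index was -2.42 in kidney and -1.98 in salivary. In spleen, muscle, lung, brain and testis, where the level was 1.23 or less, it lay between -0.64 and 0.70. A, C1:A and A:C2 were themselves higher in intestine, by 3.03, 1.26 and 2.26. The call therefore does not show skipping particular to intestine.

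Event Ben2633 followed with a deviation of 5.0. Its level was 6.77 in intestine, 4.59 in kidney and 4.30 in liver, while the other 7 tissues lay between 1.54 in lung and 2.11 in testis. The order of the leading tissues was the same as in Ben2881, and the remaining tissues formed a narrow band far below. Of its 7 probes the inclusion junction C1:A deviated most, by 6.44 units.

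Intestine had the highest level of the 10 tissues in 39 of the 59 high transcripts, was at rank 2 in 13 and at rank 3 in 7. Over all 3126 events it ranked first in 236, or 7.55%. The 59 were chosen by the same level, which favours a high rank, so the 2 shares are not a like comparison. In 9 of the 59 it stood apart from each of the other tissues by at least the threshold, with gaps to the next tissue of 2.17 to 4.42 units. These 9 are Ben2881, Ben2633, Ben3707, Ben737, Ben1997, Ben3603, Ben2851, Ben3747 and Ben248. In the remaining 50, from 1 to 4 other tissues lay within the threshold of intestine: 10 transcripts had 1 such tissue, 15 had 2, 12 had 3 and 13 had 4. More than 4 was not possible, because the median of the other tissues had to lie beyond the threshold. No event was lower in intestine than in each of the other tissues by the threshold.

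Kidney was the tissue most often next to intestine. It had the highest level of the other 9 in 22 of the 59 transcripts, or 37.3%, against 10.1% over all events. Liver was highest of the others in 12, salivary in 8, spleen in 6, testis in 5, brain in 3, lung in 2, muscle in 1 and heart in 0. Testis was the highest of these 9 in 22.4% of all events but in 8.47% of the transcripts high in intestine. With the arrays brought to one distribution, kidney was highest of the others in 23 of 57 transcripts, 40.4%. Liver read above intestine in 11 of the 59 and kidney in 9, whereas brain, heart, lung and muscle did so in 0.

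The place of kidney in this list was set beside the lists of transcripts high in other tissues, made in the same way. Kidney was next highest in 109 of 564 such transcripts of the 8 tissues other than intestine and kidney, 19.3%. Liver supplied most of these, with 57 of 119. Without liver the share was 52 of 445, or 11.7%. Intestine in its turn was next highest in 12 of 76 transcripts high in kidney, 15 of 119 in liver, 8 of 25 in salivary and 7 of 28 in spleen, against 12 of 210 in testis and 6 of 98 in brain. It was next in 1 of 24 for muscle and in 0 for heart and lung. How often intestine is next over all events, with each list tissue set aside, was not counted. These numbers thus lack a base, and whether intestine is especially near to any of these tissues was not tested. Testis and brain, given for contrast, were also the tissues least alike to intestine in level over all events. Events can stand in more than 1 of these lists.

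**Figure D2:**
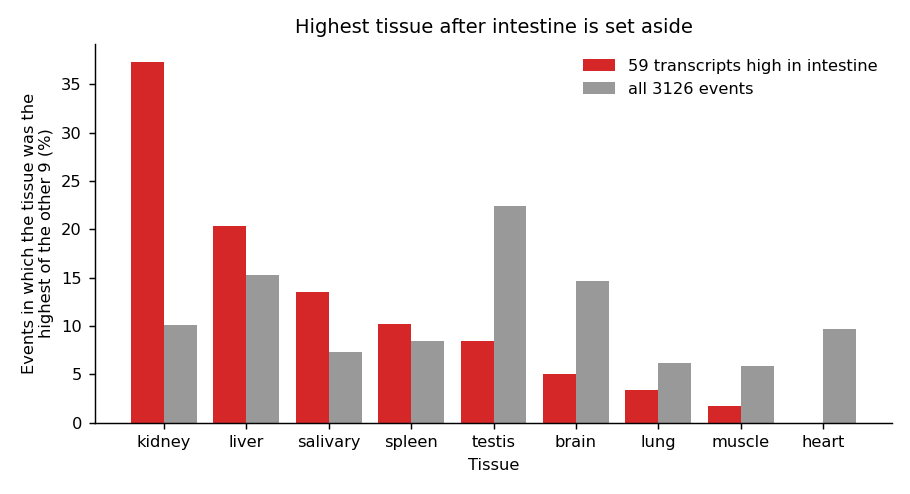
Share of events (%) in which each of the other 9 tissues had the highest level once intestine was set aside, for the 59 transcripts high in intestine (red) and for all 3126 events (grey). Kidney accounts for 37.3% of the red events and 10.1% of the grey, and heart for 0 of the red.

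Across all 3126 events, with no selection, the levels in intestine correlated most with those in salivary (Pearson's r = 0.714). Spleen followed at 0.693, lung at 0.691 and kidney at 0.684. Liver stood at 0.645, muscle at 0.639, heart at 0.587, brain at 0.45 and testis at 0.375. The points of each correlation are events of the same arrays and are not independent, and the values from spleen to kidney are too close to set an order. Without the lowest 25% of events by mean level, kidney was first at 0.571, followed by salivary at 0.558 and spleen at 0.541. Brain and testis were the least alike to intestine in each version, including rank correlation.

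Direct differences were taken against salivary, spleen and lung, the 3 with the highest r over all events, a set that is not firm since kidney was close behind. Against salivary, 60 transcripts were higher in intestine by the threshold and 21 lower. Against spleen the numbers were 69 and 16, and against lung 54 and 30. Of all events, 33 were higher in intestine than in each of these 3. Kidney, most often next to intestine in the high transcripts, gave more transcripts in the other direction, with 37 higher in intestine and 72 higher in kidney, and liver did so too, with 54 and 91.

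The probes of an event measure its transcript from different places, and in the 59 high transcripts they mostly moved up together. C1 was high in 48 of the 59 and C2 in 50, which the choice by level sets in part (over all events 2.11% and 2.43%). Of the probes that level does not use, A was high in 36, A:C2 in 39, C1:A in 29 and C1:C2 in 27. Over all events, the shares high in intestine were 1.7% for A, 1.86% for A:C2, 1.5% for C1:A and 1.38% for C1:C2. In 13 events all 6 exon and junction probes were high. Each of these 13 was among the 59, which high C1 and C2 probes nearly ensure. In 7 of the 59 no probe outside the flanks was high. INT was high in 2 of the 59, against 0.352% of all events.

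**Figure D3:**
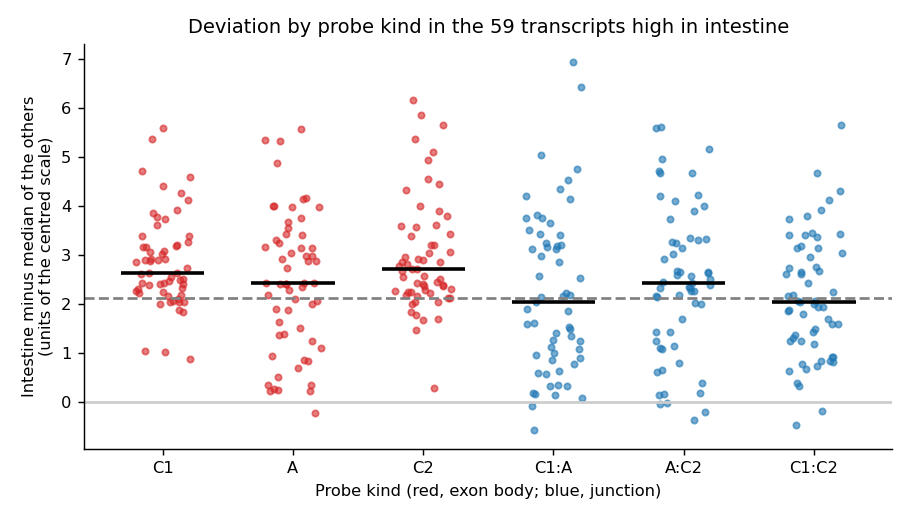
Deviation of intestine from the median of the other 9 tissues (units of the centred scale) for 6 probe kinds in the 59 transcripts high in intestine, 1 point per event, with black bars for medians and a dashed line at the probe threshold of 2.11. C1 and C2 chose the events. The medians of A (2.42) and A:C2 (2.42) lie above the line and those of C1:A (2.04) and C1:C2 (2.03) just below it.

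The 59 were then divided by which junctions were high. In 18 of the 59, both the inclusion junctions (mean of C1:A and A:C2) and the skipping junction were high. In 15, the inclusion junctions alone were high, and there the median deviation was 2.74 for A and 1.17 for C1:C2. In 9, the skipping junction alone was high. These 9 had a median deviation of 2.95 at C1:C2 and of 2.96 in level, but of 0.494 at A and 0.753 at the inclusion junctions. The other 17 had neither kind past the threshold.

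The A probe, read on its own, was high in intestine in 53 events, 1.7% of all, and low in 1, 0.032%. The threshold for A was 2.16 units. In the other 9 tissues pooled the shares were 2.23% and 0.132%. Of the 53, 36 lay on transcripts that were also high by level. In the other 17, the level deviated by -0.07 to 2.06 units, with a median of 1.26, so most of these transcripts were above the other tissues without reaching the level threshold. In the opposite class, 23 transcripts were high by level and not by A. There A deviated by a median of 0.94 (range -0.24 to 2.1), and in 11 of the 23 it read below the 95th percentile of the INT probes in intestine. Intestine had the highest A value of the 10 tissues in 36 of the 53 events.

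The A probe of event Ben3434 deviated most, by 5.57 units. It read 6.09 in intestine and 6.78 in salivary, then 3.23 in liver, 2.90 in lung, 1.09 in heart, 0.535 in brain, 0.323 in spleen, 0.0395 in muscle, and was listed at 0 in kidney and testis. Salivary was thus above intestine, and the rest were far below both. All 7 probes of this event, INT included, were listed at 0 in kidney. In the series 19 events had all 7 probes at 0 in some tissue, none of them in intestine, and whether these are failed readings was not tested. Its C2 and A:C2 probes deviated by 5.66 and 5.60, and its level read 5.96 in intestine and 6.61 in salivary.

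Event Ben3707 had a level above the INT median in intestine and in no other tissue. Its A probe read 6.13 in intestine and 3.16 in brain, with the other 8 tissues between 0.588 and 1.19. Its level was 5.51 in intestine, and the other 9 tissues lay between 0.379 in heart and 1.03 in testis. The gap of 4.42 units to the next tissue was the largest of any event in which intestine was highest. Both inclusion junctions deviated by over 5 units (5.05 for C1:A and 5.16 for A:C2) and C1:C2 by 4.12. The A probe was the only one of the 6 with a raised value in brain, where C1, C2 and the 3 junctions read 0.863 to 1.04.

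The low calls were few and less firm. Event Ben879 was low by level, with a deviation of -2.43, and was also the only low A probe, at -2.41. Its level was 1.15 in intestine, 1.16 in liver, 1.38 in spleen and 1.82 in testis, against 3.22 to 4.73 in the other 6 tissues, so intestine shared its low value with 3 tissues. The junctions C1:A and C1:C2 did not follow: they read 5.0 and 5.04 in intestine, above the median of the other tissues by 0.95 and 1.18, although C1, A and C2 read 1.21, 1.62 and 1.09. Neither low call of Ben879 was kept against the mean of the other tissues, where the deviations were -1.92 for level and -1.86 for A.

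Event Ben407 was low with a deviation of -2.35. Its level was 1.08 in intestine, 1.43 in brain, 2.2 in testis, 2.25 in salivary, 2.6 in liver, 3.36 in spleen, 4.26 in muscle, 5.32 in lung, 5.39 in kidney and 6.52 in heart. Intestine was lowest, close to brain, on a transcript with a wide range. The 3 junctions were lower as well, by 2.05 to 2.31 units. Without heart, kidney, lung or muscle among the comparators the deviation was -1.97 and the call was lost.

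Exon use in intestine was read from the junction index, in which C1:C2 is subtracted from the average of the inclusion junctions C1:A and A:C2. An exon was called when the index deviated by at least 1.61 units, the body index, A less the level, had the same sign, and the level exceeded the lowest 25% of all values in intestine and in the median of the others. Of 2741 testable exons, 7 were called more included in intestine, 0.255%, and 30 more skipped, 1.09%, which makes 1.35% called in either direction. Against the mean of the other tissues 4 inclusions and 25 skips were called. Over the other 9 tissues pooled the shares were 0.861% and 1.15%. The index alone, with no demand on the sign of the body index, passed the threshold upward in 12 exons and downward in 31, so the demand on the sign took more from the inclusions than from the skips. At 0.803 units the index alone deviated upward in 102 testable exons and downward in 137, and its median deviation was -0.02. Called by the body index past its own threshold of 1.53 units, with the junction index of the same sign, 5 exons were more included and 29 more skipped. These shared 1 exon, Ben791, with the 7 inclusions and 17 with the 30 skips. Most inclusions were thus called at the junctions and not by A relative to its flanks.

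The 30 skips rested on a brighter skipping junction far more than on a dimmer alternative exon. C1:C2 was higher in intestine in each of the 30, by a median of 1.86 units (range 0.69 to 4.30). C1 and C2 were higher in 27 and 26 of the 30, with medians of 1.29 and 1.66. In contrast the medians were 0.05 for A, -0.08 for C1:A and -0.14 for A:C2. Only 4 of the 30 had an inclusion junction lower by at least 1.05 units, and in 2 of them both were. In intestine the mean of the inclusion junctions read below the 95th percentile of the INT probes in all 30, and in 27 the comparator did so too. The A probe read below it in 26 in intestine and in 28 in the comparator. A dimmer exon therefore had little room to show. The call subtracts C1:C2 and asks for A below its flanks, so higher C1:C2, C1 and C2 are set in part by the choice. The level of the transcript was above the other tissues in 28 of the 30, and 9 of the 30 lay on transcripts counted as high.

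The 7 inclusions showed the converse at the junctions, which their call likewise favours. A, C1:A and A:C2 were higher in intestine in all 7, by medians of 2.03, 2.06 and 2.41, while C1:C2 deviated by a median of 0.15 (range -0.99 to 3.40). In each of the 7 the comparator median of A and of the inclusion junctions read below the 95th percentile of the INT probes. The inclusions lay on high transcripts in 2 cases, Ben2633 and Ben3603.

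**Figure D4:**
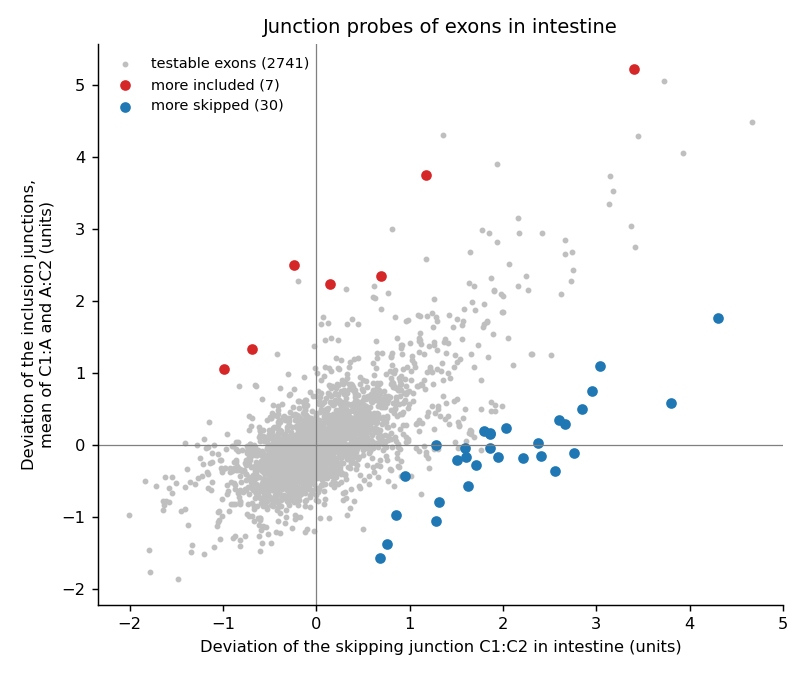
Deviation of the skipping junction C1:C2 (x axis) and of the inclusion junctions, mean of C1:A and A:C2 (y axis), in intestine against the median of the other 9 tissues, in units of the centred scale. Each point is 1 of 2741 testable exons, and most of the 30 skips (blue) lie to the right near 0 on the y axis, while the 7 inclusions (red) lie above the cloud.

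Exon calls were frequent among transcripts that were high in intestine. Of the 59, 52 were testable, and 11 of these, 21.2%, carried a call, 9 skips and 2 inclusions. Of the other 2689 testable exons 26 were called, 0.967%. Level and the body index share C1 and C2, so the share is not independent of the choice by level. The comparator level of the 59 was also low, with a median of 1.99. Where the other tissues are dim, all their junctions can read low, and their index can lie near 0 whatever the exon use. How far the calls on high transcripts reflect this was not tested. The median index deviation of the 52 was 0.28, so by the junction index high transcripts as a group did not lean to skipping. The body index, which subtracts the level, leaned lower in the 59. Its median deviation was -0.21, with 36 below 0 and 23 above. It was lower past its threshold in 11 of the 59 and higher in 0, against 34 and 16 over all events. A choice by high level itself favours a lower body index. These numbers are therefore not a like comparison and give no result about exon use.

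A stricter filter asked of the inclusion junctions and of C1:C2 a value above the 95th percentile of INT, in intestine or in the median of the others. It left 333 testable exons, with 3 inclusions and 2 skips. The preponderance of skips in intestine was not present among these exons, but the filter cannot test it. The inclusion junctions read below that percentile in intestine in all 30 skips, and in the comparator in 27 of them. Among the 7 inclusions they did so in intestine in 1. The filter thus removes skips by construction. Intestine had the lowest index of the 10 tissues in 22 of the 30 skips and the highest in 4 of the 7 inclusions. Only 1 skip and 1 inclusion stood apart from all other tissues by the threshold. The next lowest index among the skips was most often that of salivary, in 7, or testis, in 6.

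Event Ben3603 had the largest inclusion, with an index deviation of 2.90. Its index was 4.33 in intestine, against 0.572 in liver, a median of 1.44 and 2.29 in spleen, the highest of the others. No other tissue reached intestine. Its transcript was also one of the 9 that stood apart by level, at 6.03 in intestine and at most 3.11 elsewhere. The deviations were 3.75 for A, 3.76 for C1:A and 3.74 for A:C2, close to those of C1 (3.74) and C2 (3.58), while C1:C2 read 1.74 in intestine and 0.353 to 0.872 elsewhere. The body index deviated by only 0.21, so the call rests on the skipping junction, which deviated less than the rest of the transcript and read under the INT median in the other tissues.

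Event Ben3700 followed with an index deviation of 2.67. Its index was 2.79 in intestine, with the others between -0.94 in heart and 1.21 in testis. Intestine was again highest, though here testis lay within the threshold. A:C2 read 4.2 in intestine and at most 1.76 elsewhere, whereas C1:A read 2.51 and at most 1.5 elsewhere. C1:C2 was below the INT median in intestine, at 0.564, and in every other tissue except heart, at 1.43. The level deviated by 1.57, short of its threshold.

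Event Ben1529 was the most skipped exon, with a deviation of -3.34 in the index and -2.19 in the body index. Its index was -3.37 in intestine, -2.29 in salivary, -2.12 in brain, -1.46 in spleen, -1.35 in kidney, -0.03 in testis, 0.227 in lung, 0.238 in liver, 1.43 in muscle and 1.44 in heart. Intestine stood at one end and heart and muscle at the other, with salivary and brain within the threshold of intestine. The transcript itself differed less, with levels of 4.72 in intestine, 4.6 in heart and 4.35 in muscle. Its A probe read 1.64 in intestine, 4.96 in heart and 4.11 in muscle, and C1:C2 read 4.65, 2.94 and 2.4. Both isoform readings thus differed in opposite directions between intestine and these muscle tissues at similar level. The low A reading was not particular to intestine. It was 1.58 in kidney and 1.77 in salivary, with liver, testis and brain between these, and A deviated by only -0.26.

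Event Ben3919 was next, with an index deviation of -3.17. Its index was -3.81 in intestine, -2.58 in salivary, -1.98 in brain and -1.89 in lung, and between -1.36 and -0.41 in the other 6 tissues. Intestine was lowest, and salivary and brain came next as in Ben1529. C1:C2 read 4.48 in intestine and 0.967 to 3.23 elsewhere, while the inclusion junctions read under 2 in every tissue, with a highest value of 1.92 for C1:A in kidney. The level was 4.64 in intestine and 4.32 in kidney, and deviated by 2.1.

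On transcripts with no level call, 4 called exons passed the stricter junction filter. Event Ben791 was more included in intestine by 2.05 units. Its index was -1.58 in both kidney and intestine, from -2.59 to -2.65 in salivary, brain and lung, and from -3.63 in spleen to -5.09 in heart. Intestine and kidney thus had the highest values, though salivary, brain and lung lay within the threshold of intestine. The A probe read 3.71 in intestine and 5.3 in kidney, and at most 1.83 in the other 8 tissues. Level did not follow this order, at 3.63 in intestine, 5.4 in kidney and 6.49 in liver. Liver had the brightest transcript with an A probe of 1.6. The call was lost without heart, liver, muscle or testis among the comparators, at 1.56 units.

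Event Ben663 was more included by 1.8 units. Its index was 0.627 in liver, 0.302 in intestine and 0.102 in kidney, with salivary at -0.84, testis at -0.96 and the others between -1.5 in spleen and -2.9 in heart. Intestine lay between liver and kidney at the top of the order, and salivary and testis were also within the threshold of intestine. The A probe read 3.93 in intestine, 3.27 in liver, 2.56 in kidney and 2.52 in salivary, and 0.893 to 1.76 in the others. Levels were close by comparison, from 2.85 in testis to 4.51 in intestine. The call was lost without brain, heart, lung or muscle among the comparators, and against the mean of the others, at 1.53 and 1.52 units.

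Event Ben987 was more skipped by 2.0 units. Its index was -1.79 in intestine, -0.91 in salivary, -0.45 in brain, -0.31 in both kidney and heart, and 0.211 to 0.851 in the other 5 tissues. Intestine was lowest, with salivary again next. Here the inclusion junctions were lowest in intestine as well: C1:A read 1.74 in intestine and 2.44 to 4.59 elsewhere, and A:C2 read 2.12 and 2.63 to 4.96. C1:C2 was higher by 0.69, and level deviated by -0.15. The A probe was less clear, at 2.65 in intestine, below all others except brain at 2.32, and the body index deviated by only -0.30.

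Event Ben3763 was more skipped by 1.74 units. Its index was -1.2 in intestine and from 0.0987 in spleen to 1.17 in brain elsewhere, so that intestine stood alone below the rest, though spleen, lung, kidney and salivary lay within the threshold. C1:C2 was highest in intestine, at 3.53 against 2.02 to 3.29. A:C2 was among the lowest, at 3.67, beside 3.64 in spleen. The level was also lower, by 1.02, at 3.32 in intestine and 3.29 in spleen against 4.21 or more in the others. The body index deviated by -0.16, so the A probe followed the flanks and the call rests on the junctions.

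**Figure D5:**
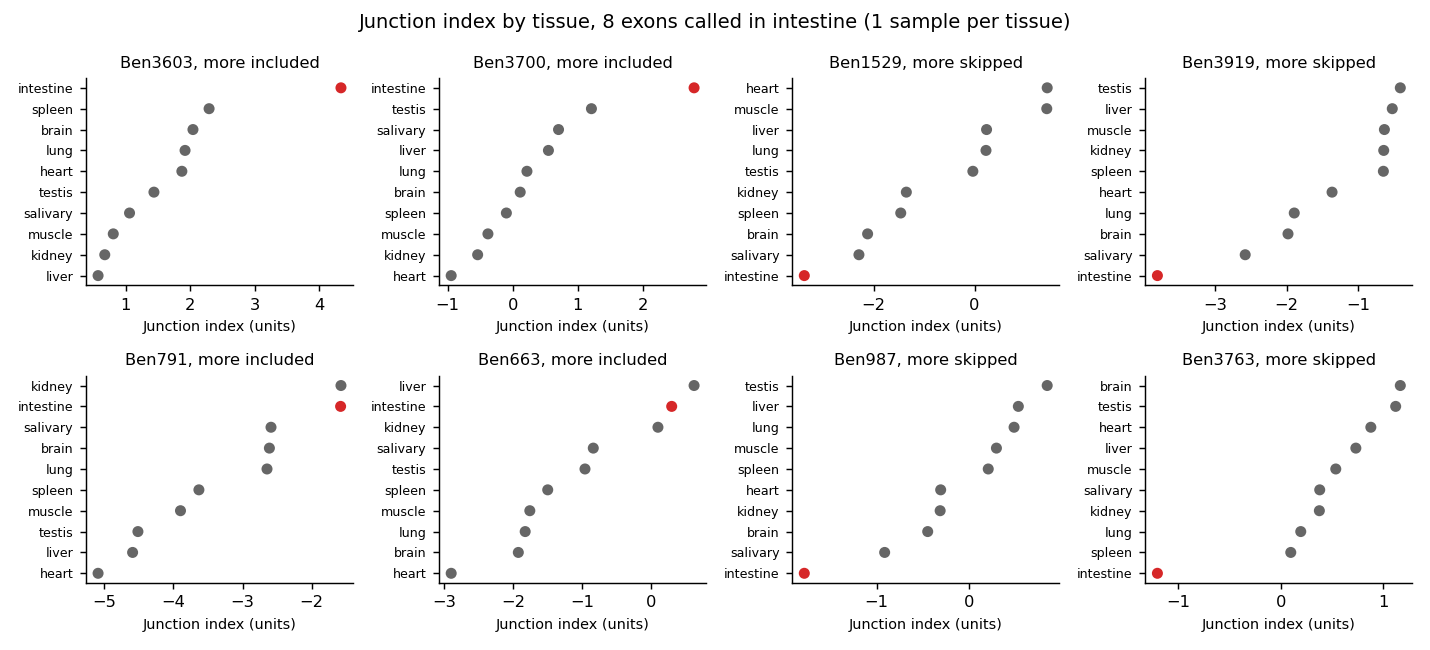
Junction index (inclusion junctions less the skipping junction, units of the deposited scale) in each of the 10 tissues for 8 exons called in intestine, 1 point per tissue and 1 sample per point, with intestine in red. Intestine is at one end of the order in 6 panels, and lies beside kidney in Ben791 and between liver and kidney in Ben663.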

How the data were processed

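The deposited table holds 21882 probe values for each of 10 samples. They were treated as a score made by the authors, on a scale never below 0. The labels state neither its base nor how arrays were scanned and normalized. Arrays were centred on their medians. Thresholds were 4 robust SDs (median absolute deviation, scaled to a normal SD) of all deviations, since a fold needs a stated base. INT probes entered no index. The flank filter used the mean of C1 and C2. Events named were the 2 highest and 2 lowest past the threshold by level, by index and by A, and the same for exons without a level call that passed the junction filter; the 9 that stood apart by level were named after their values were seen. Planned gene lists were not used, as the table names no genes. Members, lists and thresholds were chosen with earlier results of these data known. As each tissue has 1 sample, there was no model, and precision is limited by the number of arrays. The alternatives were other scalings, comparators, thresholds, indices and filters. The script was tested on simulated data. Software was matplotlib 3.10.9, scipy 1.17.1, pandas 2.3.3, numpy 2.4.6 and Python 3.11.15.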

Additional observations from a re-analysis of the deposited data

How the results depend on the processing

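No paired analysis was possible because there is a single sample per tissue. One alternative was chosen after seeing the data: C1 and C2 each above the lowest 25%, which gave 6 inclusions and 27 skips. Against the mean of the others 230 probes, 38 transcripts and 4 inclusions were counted, with 1 low transcript and 0 low A probes. Quantile normalization gave 2 low A probes. At 3 robust SDs high and low numbers were 670 and 84 for probes, 109 and 5 for transcripts, and 103 and 13 for A, with 19 inclusions and 55 skips. At 6 they were 114 and 0, 13 and 0, and 19 and 0, with 2 and 9. With the robust SD of intestine alone they were 580 and 55 for probes and 85 and 9 for A, with 16 and 50. Above the INT 95th percentile 7 probes were low, with 3 inclusions and 2 skips, as under the junction filter. C1:A alone gave 13 inclusions, and no sign requirement 12 beside 31 skips. The body index shared 1 of 7 inclusions and 17 of 30 skips with the junction index. Leaving out single tissues moved low probes from 12 to between 6 (heart) and 22 (spleen), with 7 without muscle, 19 without salivary and 20 without liver. Low transcripts then numbered 1 to 2, and low A probes 1 to 3. High probes ranged from 323 to 377, transcripts from 53 to 64, A from 45 to 55, inclusions from 6 to 9 and skips from 29 to 32. The members changed as well. Of the 7 inclusions, 4 were still called without heart and without muscle, 5 without brain and without testis, and 6 or 7 otherwise. Of the 30 skips, 26 (without heart) to 29 (without lung) were still called. Thresholds and filters change numbers by construction; the cause of the other shifts was not tested. Of the values of named events under other scalings, comparators and thresholds, 203 stayed past the threshold of their measure, 22 fell short of it and 0 changed sign. For exons only the junction index was rechecked, not the sign of the body index or the flank filter. At 3 robust SDs and with the robust SD of intestine alone the thresholds were lower, so no value could fall short there.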

Other observations

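The flanks of some events parted in intestine. C1 was high while C2 deviated by less than 1.05 units in 9 events, and C2 was high while C1 deviated by less than 1.05 units in 16. In the 9, no A, junction or INT probe was high, and the median deviation was -0.31 for C1:A and -0.20 for C1:C2. In the 16, A was high in 5 and A:C2 in 7, whereas C1:A and C1:C2 were each high in 2. Across all 3126 events the deviations of C1 and C2 in intestine correlated at r = 0.72, over events of the same arrays that share their comparators. In the 59 transcripts high by level the deviations of C1 and C2 differed by a median of 0.527 units, against 0.238 over all events.

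INT probes were high in intestine in 11 events. Their deviations ran from 2.11 to 3.61, and they read 2.94 to 6.27 in intestine. Intestine had the highest INT value of the 10 tissues in 10 of the 11. C1 or C2 was also high in 2 of the 11, and A in 2.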
